A study of Homo sapiens with 6 samples.

Results

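Zinc transporter genes were followed in EndoC-βH1 cells (EndoCBH1 in the labels), an immortalised human line that was made from fetal pancreas and resembles beta cells, after siRNA against the homeobox factor MNX1. The group of 9 genes comprised 6 of the SLC30 family (SLC30A1, SLC30A5, SLC30A6, SLC30A7, SLC30A8 and SLC30A9) and 3 of the SLC39 family (SLC39A6, SLC39A10 and SLC39A14). They were taken by symbol from 16792 genes in the deposited table, and all 9 were present. The study, by its title, asks how MNX1 keeps somatostatin off in beta cells through PERCC1. Total RNA was sequenced from 3 libraries of cells given siMNX1 and 3 of cells given a non-targeting siRNA (siNT), and the labels name no other treatment in either group. Both groups are the same line, with the genotype given as MNX1 knock down in siMNX1 cells and WT in siNT cells, so the results describe 1 line. The labels do not say whether libraries of a group came from separate cultures, so p-values measure the spread between these libraries, which may be technical.

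Zinc transporters fall into a pair of families that work in opposite directions. SLC30 proteins (ZnT) move zinc out of the cytosol, either across the plasma membrane or into organelles, and SLC39 proteins (ZIP) move it into the cytosol from outside or from organelles. Beta cells hold much zinc, because insulin is packed in secretory granules as crystals of zinc-bound hexamers, and the granule transporter ZnT8, encoded by SLC30A8, loads that zinc.

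Values are the authors' normalized counts, and each mean is given with its SD over 3 libraries. MNX1 itself had 1885, 1708 and 1751 normalized counts in siMNX1 replicates 1 to 3, against 2039, 2033 and 1988 in siNT replicates 1 to 3 (log2 fold change -0.18, adjusted p = 0.116 by limma). The targeted transcript was lower in every siMNX1 library, at 0.882 of the siNT mean, and did not pass the threshold. PERCC1 and SST, the somatostatin gene, averaged 842 ± 59.1 and 858 ± 24.5 in siMNX1 cells, against 44.3 ± 9.25 and 220 ± 16.6 in siNT cells, and both passed the threshold (limma, adjusted p = 2.47e-06 and 3.97e-06). All 8 beta cell markers were measured in every library, and they did not move one way. MAFA and UCN3 rose (log2 fold change 0.56 and 0.49, limma, adjusted p = 0.0131 and 0.0105). G6PC2 and IAPP fell (log2 fold change -0.36 and -1.84, limma, adjusted p = 0.00855 and 0.0123), and IAPP was low, at 15.3 ± 3.76 in siMNX1 cells and 57.8 ± 16.1 in siNT cells. INS, PDX1, NKX6-1 and SLC30A8 did not pass. Deposited totals lay between 18406479 and 18704645, which follows the normalization and is not a depth. The first principal component (29.4% of the variance) held siMNX1 libraries between 18.1 and 23.4 and siNT libraries between -22.8 and -20.0. On the second principal component (20.1% of the variance) siMNX1 replicates 1 and 2 stood apart, at 29.4 and -31.7. The other 4 libraries lay between -2.66 and 2.40 on it. Distances between libraries over all components were not compared.

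No zinc transporter gene passed an adjusted p of 0.05 in either direction. Over all 16792 genes, 1.99% were called higher and 1.33% lower with siMNX1 (limma, Benjamini-Hochberg adjustment over all genes). The count among the 9 genes was 0 higher and 0 lower. At an unadjusted p under 0.05, 4 were higher and 1 was lower, while 9.81% of all genes were higher and 8.56% lower at that mark. The 95% intervals of the 9 genes together span 0.873-fold to 1.40-fold. The median log2 fold change was 0.13 over the 9 genes and -0.0004 over all genes, and 6 of 9 values were above 0, against 49.9% of all genes.

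The libraries of the 2 groups did not overlap for 5 of the 9 genes. SLC30A1, SLC30A8, SLC39A6 and SLC39A10 were higher in every siMNX1 library than in any siNT library, and SLC39A14 was lower in every one. This is 44.4% of the genes higher and 11.1% lower, where 12.0% of all genes lay wholly higher and 12.1% wholly lower. Since 1 library can set such an ordering, the values are given gene by gene.

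**Figure D1:**
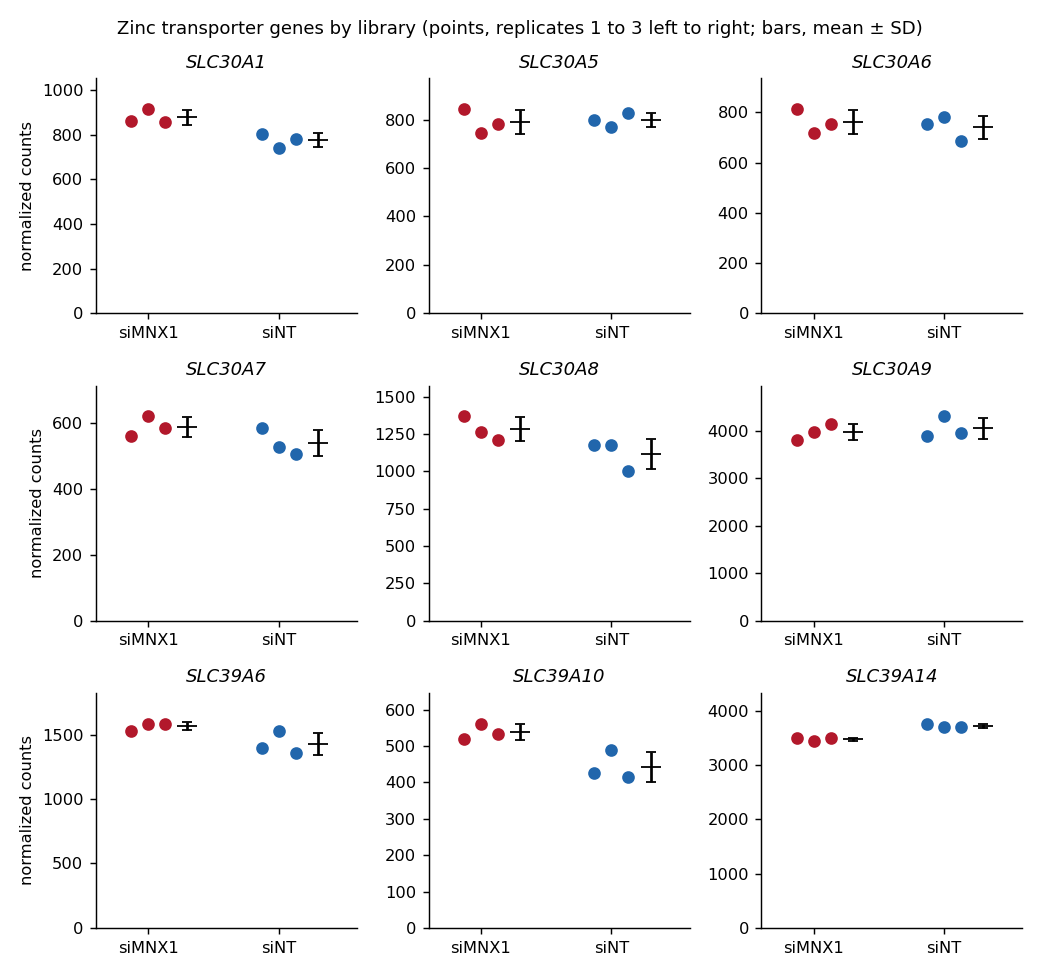
Normalized counts of the 9 genes in each library (points, replicates 1 to 3 from left to right, siMNX1 red and siNT blue; black bars, mean ± SD of 3 libraries; every axis starts at 0). The points separate for SLC30A1, SLC30A8, SLC39A6, SLC39A10 and SLC39A14, and the steps are small beside the level of each gene.

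SLC30A8 (ENSG00000164756, GRCh38 chr8:116950273-117176714, plus strand), the granule transporter and a beta cell marker, had 1369, 1266 and 1213 normalized counts in siMNX1 replicates 1 to 3, against 1175, 1179 and 1001 in siNT replicates 1 to 3. The lowest siMNX1 library lay just above the highest siNT library, and siNT replicate 3 was the lowest of the 6. Its log2 fold change was 0.20 (SE 0.080, 95% interval 0.02 to 0.38) and missed the adjusted mark (limma, adjusted p = 0.219, 0.191 to 0.508 over 16 alternatives). Without siNT replicate 3 the log2 fold change was 0.12, the lowest of those alternatives.

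INS, the cargo that the granule zinc binds, had 130171, 126840 and 119146 normalized counts in siMNX1 replicates 1 to 3, against 114592, 109855 and 107169 in siNT replicates 1 to 3. INS was higher in every siMNX1 library, with a log2 fold change of 0.18 that missed the mark (limma, adjusted p = 0.0656) and met it with a robust variance (adjusted p = 0.0314). The log2 ratio of SLC30A8 to INS within a library was -6.61 ± 0.038 in siMNX1 cells and -6.63 ± 0.102 in siNT cells (n = 3 each). The difference of 0.02 was smaller than the spread between siNT libraries (exact two-sided permutation test, p = 0.9, adjusted p = 0.9 over 3 ratios, n = 3 each, and the smallest p this design can give is 0.1).

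SLC30A1 (ENSG00000170385, GRCh38 chr1:211571568-211578742, minus strand), which encodes ZnT1, the main zinc exporter of the plasma membrane, had 861, 914 and 855 normalized counts in siMNX1 replicates 1 to 3, against 804, 740 and 781 in siNT replicates 1 to 3. All siMNX1 libraries lay above all siNT libraries, and the spread within both groups was alike. The log2 fold change was 0.18 (SE 0.066, 95% interval 0.03 to 0.33) and did not pass (limma, adjusted p = 0.188). ZnT1 is known as a target of MTF1, the metal-sensing transcription factor, which binds metal response elements.

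The promoter of SLC30A1 is shown because it holds matches to the core of that element. The window runs from 250 bases before to 50 after the RefSeq start, which lies upstream of the GENCODE 29 start (GRCh38.p14, minus strand, chr1:211579112-211579411), written 5′ to 3′, with matches to TGCACNC or TGCGCNC on either strand in capitals.
SLC30A1: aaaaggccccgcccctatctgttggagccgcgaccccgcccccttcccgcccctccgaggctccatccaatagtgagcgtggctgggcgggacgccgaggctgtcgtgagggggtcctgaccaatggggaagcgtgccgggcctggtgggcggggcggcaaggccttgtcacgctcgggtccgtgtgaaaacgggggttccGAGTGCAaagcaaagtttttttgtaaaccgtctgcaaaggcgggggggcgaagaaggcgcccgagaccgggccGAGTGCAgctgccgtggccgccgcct
Both matches are on the opposite strand, with their first bases at -49 and 25 from the start. Over 35116 RefSeq promoters of this length, 29.6% held at least 1 match. A promoter window was found for 7 of the 9 genes, which did not include SLC30A8 and SLC39A14. Matches also stood in SLC30A6 (1), SLC39A6 (1) and SLC39A10 (1, in 1 of its 2 windows), and 0 in SLC30A5, SLC30A7 and SLC30A9. MTF1 itself averaged 425 ± 27.9 normalized counts in siMNX1 cells and 422 ± 121 in siNT cells (log2 fold change 0.05, limma, adjusted p = 0.917).

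ZnT5, ZnT6 and ZnT7 serve the early secretory pathway, where they supply zinc to enzymes such as alkaline phosphatases. ZnT5 works as a heterodimer with ZnT6, and ZnT7 with itself. SLC30A5 (ENSG00000145740, GRCh38 chr5:69093646-69131069, plus strand) had 843, 745 and 782 normalized counts in siMNX1 replicates 1 to 3, against 798, 767 and 825 in siNT replicates 1 to 3, and the groups overlapped fully (log2 fold change -0.01, 95% interval -0.17 to 0.15, limma, adjusted p = 0.944). SLC30A6 (ENSG00000152683, GRCh38 chr2:32165841-32224379, plus strand) had 814, 719 and 755 in siMNX1 replicates 1 to 3, against 753, 780 and 688 in siNT replicates 1 to 3, with overlap as well (log2 fold change 0.04, 95% interval -0.13 to 0.22, limma, adjusted p = 0.82). The direction of both turned with single libraries left out, over -0.06 to 0.03 for SLC30A5 and -0.01 to 0.08 for SLC30A6. Their log2 ratio within a library, SLC30A5 to SLC30A6, was 0.05 ± 0.0009 in siMNX1 cells and 0.11 ± 0.144 in siNT cells (exact two-sided permutation test, p = 0.7, adjusted p = 0.9 over 3 ratios, n = 3 each). The siMNX1 libraries lay close together on this ratio, and the siNT libraries ran from -0.02 to 0.26.

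SLC30A7 (ENSG00000162695, GRCh38 chr1:100896076-100981753, plus strand) had 561, 621 and 586 normalized counts in siMNX1 replicates 1 to 3, against 585, 529 and 506 in siNT replicates 1 to 3. The groups overlapped, since siNT replicate 1 lay among the siMNX1 libraries. The log2 fold change was 0.13 (SE 0.082, 95% interval -0.06 to 0.31) and did not pass (limma, adjusted p = 0.454). SLC30A9 (ENSG00000014824, GRCh38 chr4:41990472-42090457, plus strand), whose product ZnT9 has been linked to zinc export from mitochondria, had 3806, 3961 and 4138 in siMNX1 replicates 1 to 3, against 3892, 4301 and 3942 in siNT replicates 1 to 3. The groups overlapped, and limma gave a log2 fold change of -0.03 (95% interval -0.15 to 0.10, adjusted p = 0.839), which corresponds to 0.900-fold to 1.07-fold.

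**Figure D2:**
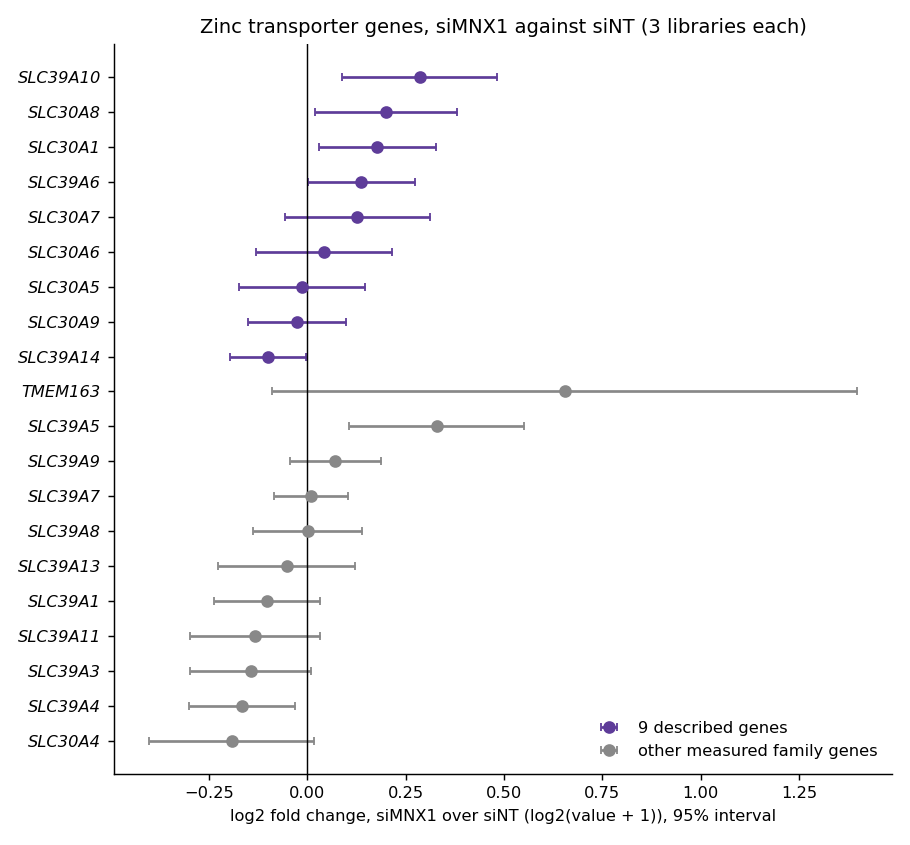
Log2 fold change of siMNX1 over siNT with its 95% limma interval (points and bars) for the 9 genes (purple) and for 11 other measured zinc transporter genes (grey), on the log2(value + 1) scale. SLC39A10, SLC30A8, SLC30A1 and SLC39A6 have intervals above 0 and SLC39A14 one below 0, and none of the 9 passes the adjusted threshold.

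Of the importers, ZIP6 and ZIP10 (SLC39A6 and SLC39A10) are close relatives at the plasma membrane and are known from mouse cells to form a heteromer. SLC39A10 (ENSG00000196950, GRCh38 chr2:195575977-195737702, plus strand) had 519, 562 and 534 normalized counts in siMNX1 replicates 1 to 3, against 425, 488 and 414 in siNT replicates 1 to 3. Every siMNX1 library exceeded every siNT library. Its log2 fold change of 0.29 (SE 0.088, 95% interval 0.09 to 0.48) was the largest of the 9 and had their smallest adjusted p, 0.118 by limma, which did not pass. SLC39A6 (ENSG00000141424, GRCh38 chr18:36108532-36129385, minus strand) had 1529, 1584 and 1586 in siMNX1 replicates 1 to 3, against 1394, 1525 and 1359 in siNT replicates 1 to 3. The lowest siMNX1 library lay just above siNT replicate 2. The log2 fold change was 0.14 (SE 0.061, 95% interval 0.0006 to 0.27), short of the mark (limma, adjusted p = 0.269).

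Within a library the log2 ratio of SLC39A6 to SLC39A10 was lower in every siMNX1 library than in any siNT library. The mean was 1.54 ± 0.040 in siMNX1 cells and 1.69 ± 0.042 in siNT cells, a difference of -0.15 (n = 3 each, exact two-sided permutation test, p = 0.1, the smallest possible, adjusted p = 0.3 over 3 ratios). These are ratios of counts that were not divided by length, so only their difference between groups can be read.

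The promoters of SLC39A6 and SLC39A10 are shown as those of the importers that lay higher in every siMNX1 library. The first holds the only match among the 7 genes to TAATTA, a core bound by many homeodomain proteins. Both windows run from 250 bases before to 50 after a RefSeq start (GRCh38.p14), for SLC39A6 chr18:36129291-36129590 on the minus strand and for SLC39A10 chr2:195656976-195657275 on the plus strand, which lies inside the GENCODE 29 gene and is the one of its 2 windows with a match. They are written 5′ to 3′ with matches to TAATTA and to the same metal element core in capitals.
SLC39A6: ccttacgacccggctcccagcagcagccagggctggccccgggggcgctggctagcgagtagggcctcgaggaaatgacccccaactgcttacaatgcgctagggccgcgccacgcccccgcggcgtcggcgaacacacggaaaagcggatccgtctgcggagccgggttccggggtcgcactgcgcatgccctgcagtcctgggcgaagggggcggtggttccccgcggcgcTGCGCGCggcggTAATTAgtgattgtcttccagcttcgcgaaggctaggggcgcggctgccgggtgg
SLC39A10: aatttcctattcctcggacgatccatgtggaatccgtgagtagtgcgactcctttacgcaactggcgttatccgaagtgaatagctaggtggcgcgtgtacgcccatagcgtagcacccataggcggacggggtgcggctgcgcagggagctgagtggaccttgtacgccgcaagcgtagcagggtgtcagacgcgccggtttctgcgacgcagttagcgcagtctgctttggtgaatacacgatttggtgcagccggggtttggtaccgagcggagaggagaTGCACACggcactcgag
In SLC39A6 the metal element core began at -17 and TAATTA, which reads the same on both strands, at -5. In SLC39A10 the metal element core began at 34. TAATTA was present in 4.84% of all promoters of this length.

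SLC39A14 (ENSG00000104635, GRCh38 chr8:22367249-22434129, plus strand), whose product ZIP14 brings zinc, manganese and iron into the cell, had 3493, 3444 and 3494 normalized counts in siMNX1 replicates 1 to 3, against 3766, 3708 and 3708 in siNT replicates 1 to 3. It was lower in every siMNX1 library, and the libraries within a group lay close together. The log2 fold change was -0.10 (SE 0.043, 95% interval -0.20 to -0.004) and did not pass (limma, adjusted p = 0.249). It stayed between -0.11 and -0.09 over 16 alternatives. GENCODE 29 places small RNAs, pseudogenes or antisense transcripts over most of the 9 genes, none of them in the deposited table, and whether reads were counted by strand is not given.

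Levels of the 9 genes were compared after division by the summed length of annotated exons. SLC30A9 and SLC39A14 were the most abundant of the 9, at 549 ± 23.0 and 501 ± 4.15 normalized counts per kb in siMNX1 cells and 560 ± 30.9 and 537 ± 4.89 in siNT cells. Outside the 9, SLC39A7 averaged more, at 1721 ± 26.2 in siMNX1 cells and 1710 ± 32.1 in siNT cells. So did SLC39A1, at 566 ± 30.6 in siMNX1 cells and 607 ± 27.2 in siNT cells. Its range over the 6 libraries (535 to 636) overlapped those of SLC30A9 (527 to 595) and SLC39A14 (496 to 543). With the longest annotated transcript as the length, SLC39A1 lay below SLC39A14 (704 against 749 in siMNX1 cells, 756 against 803 in siNT cells). SLC30A9 lay above SLC39A14 in 3 of 3 siMNX1 libraries, with ranges apart, and in 2 of 3 siNT libraries, where the ranges overlapped. SLC39A6 followed at 425 ± 8.72 in siMNX1 cells and 387 ± 23.8 in siNT cells. SLC30A8 came next at 204 ± 12.6 in siMNX1 cells and 178 ± 16.2 in siNT cells, below SLC39A6 in every library.

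SLC30A1, SLC30A5 and SLC30A6 came after it. They averaged 160 ± 5.89, 137 ± 8.60 and 141 ± 8.79 normalized counts per kb in siMNX1 cells and 142 ± 5.93, 138 ± 4.97 and 137 ± 8.72 in siNT cells. SLC30A8 lay above SLC30A1 in 6 of 6 libraries. The range of SLC30A1 lay wholly above that of SLC30A5 in siMNX1 cells (156 to 167 against 129 to 146) and overlapped it in siNT cells (135 to 147 against 133 to 143). SLC30A5 and SLC30A6 overlapped in both groups and did not differ beyond their spread. SLC30A7 and SLC39A10 were the lowest, at 70.4 ± 3.58 and 77.8 ± 3.13 in siMNX1 cells and 64.5 ± 4.82 and 63.9 ± 5.83 in siNT cells. SLC39A10 lay wholly above SLC30A7 in siMNX1 cells, and the pair overlapped in siNT cells. With the longest annotated transcript as the length, 5 of the 9 genes changed place in the order of siMNX1 means and 7 in that of siNT means, and SLC39A14 (749 in siMNX1 cells and 803 in siNT cells) stood above SLC30A9 (638 in siMNX1 cells and 651 in siNT cells). SLC39A6 and SLC30A8 kept the third and the fourth place under both lengths.

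**Figure D3:**
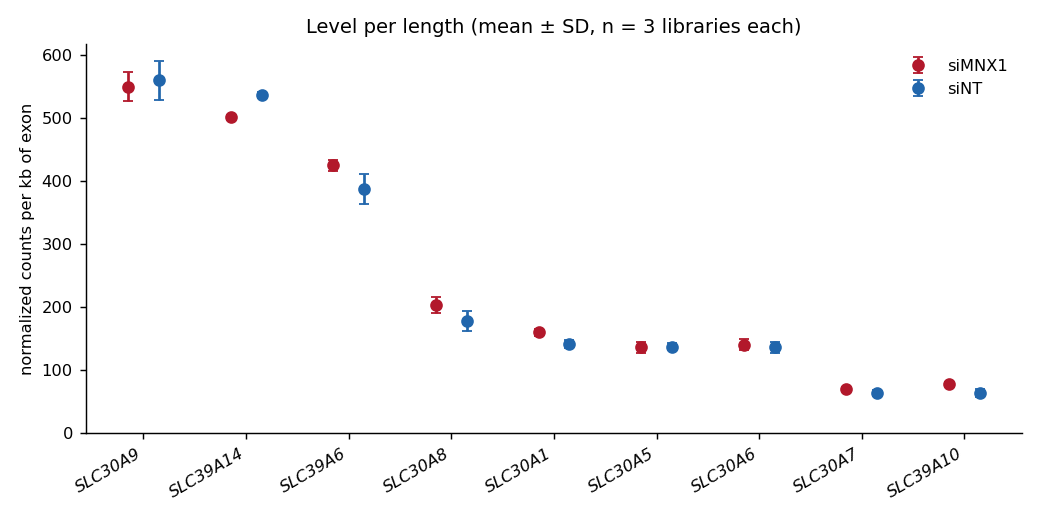
Level per length of the 9 genes, in normalized counts per kb of annotated exon, as mean ± SD of 3 libraries (siMNX1 red, left; siNT blue, right), ordered by the siNT mean. SLC30A9 and SLC39A14 lie between 501 and 560, SLC30A8 at 204 in siMNX1 and 178 in siNT cells, and SLC30A7 and SLC39A10 below 80.

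Variation between libraries was not shared evenly. The ratio of the highest to the lowest of the 6 libraries was 1.37 for SLC30A8 and 1.36 for SLC39A10, and 1.09 for SLC39A14. The library siNT replicate 3 was the lowest of the 6 for 5 of the 9 genes (SLC30A6, SLC30A7, SLC30A8, SLC39A6 and SLC39A10) and was the highest for 0. How often it was the lowest over all genes was not computed. For SLC30A8, SLC39A6 and SLC39A10 the lowest library had to be an siNT one, since the groups did not overlap. Leaving siNT replicate 3 out lowered the log2 fold change of SLC39A10 to 0.24, of SLC39A6 to 0.10 and of SLC30A7 to 0.08. Over all 144 combinations of a gene and an alternative setting, 0 passed the threshold, and the smallest adjusted p was 0.103 (SLC39A10, among genes with a mean of at least 50).

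**Figure D4:**
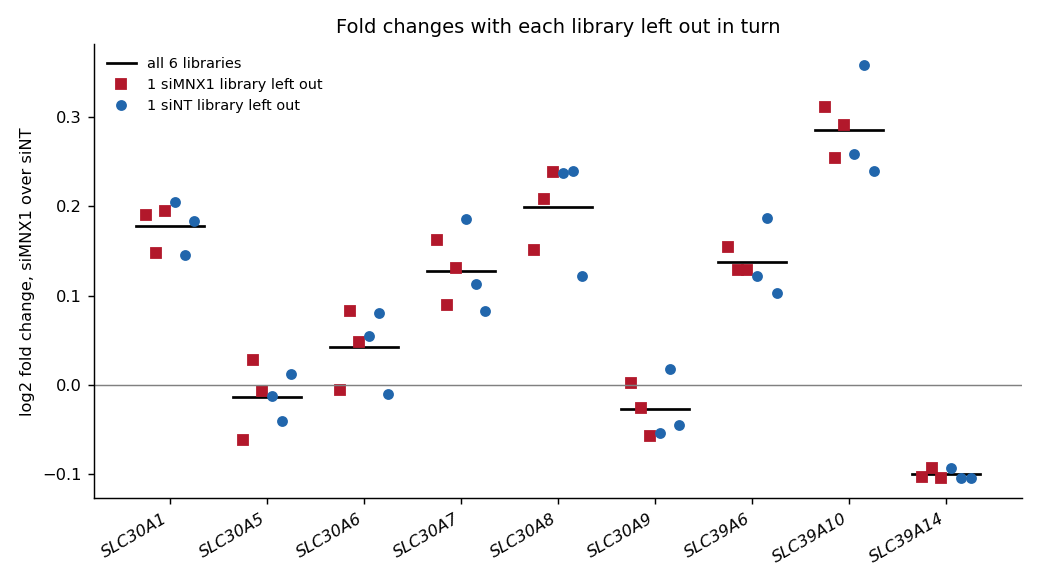
Log2 fold change of siMNX1 over siNT for each gene with all 6 libraries (black line) and with each library left out in turn (red squares, 1 siMNX1 library out; blue circles, 1 siNT library out; replicates 1 to 3 from left to right). The values of SLC30A5, SLC30A6 and SLC30A9 fall on both sides of 0, and those of SLC30A8 run from 0.12 to 0.24.

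Patterns across the 6 libraries were compared by the root mean square difference of log2 deviations from each gene's own mean, over 12677 genes with a symbol and a mean of at least 50. PCCA, a subunit of mitochondrial propionyl-CoA carboxylase, lay nearest to SLC30A8 at 0.016, followed by CTBS at 0.036 and PPP2R2B at 0.037. Among the 9 genes, SLC30A6 was the nearest to SLC30A8 at 0.092 and SLC39A14 the farthest at 0.175. The genes nearest to SLC39A10 were ANAPC15, QSOX1 and TMOD1 at 0.039, 0.043 and 0.046, and SLC39A6 was the nearest to it among the 9 genes, at 0.081. These distances over 6 libraries are descriptions, with no test.

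A list of 16 further zinc transporter symbols held 11 measured genes, and the missing ones were not analysed here. The 11 were 10 genes named SLC30 or SLC39 and TMEM163, a zinc efflux transporter. Limma called 0 of the 11, with 1 higher and 1 lower at an unadjusted p under 0.05, and their median log2 fold change was -0.05. The most abundant was SLC39A7, which releases zinc from the endoplasmic reticulum, at 4898 ± 74.4 in siMNX1 cells and 4865 ± 91.4 in siNT cells (log2 fold change 0.01, limma, adjusted p = 0.931). Named after its values were seen, SLC39A5 averaged 593 ± 75.7 in siMNX1 cells and 469 ± 13.7 in siNT cells (log2 fold change 0.33, limma, adjusted p = 0.113), and it passed without siMNX1 replicate 2 (adjusted p = 0.0296, up to 0.259 over the alternatives). SLC39A4, also named after its values were seen, had a log2 fold change of -0.17 (limma, adjusted p = 0.177). TMEM163, named after its values were seen too, was low, at 19.9 ± 5.45 in siMNX1 cells and 12.0 ± 1.91 in siNT cells, and had the largest log2 fold change of the list with a wide interval (0.65, 95% interval -0.09 to 1.40, adjusted p = 0.335 by limma).

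Zinc buffering and sensing genes gave 0 calls by limma among 7 measured of 18 listed symbols, some of which name the same gene, with 1 higher and 0 lower unadjusted. Their median log2 fold change was 0.03. The higher one was ZNF658 (log2 fold change 0.31, limma, adjusted p = 0.22). It averaged 206 ± 13.7 in siMNX1 cells and 167 ± 19.4 in siNT cells, without overlap. The metallothioneins MT2A, MT1X and MT1F, small zinc-binding proteins that MTF1 induces, averaged 63.0 ± 10.2, 109 ± 10.4 and 81.1 ± 1.82 in siMNX1 cells and 72.3 ± 6.13, 118 ± 22.4 and 76.0 ± 5.38 in siNT cells, all with overlap. The most abundant of the list was CBWD1 (ZNG1A), a zinc chaperone, at 1017 ± 70.7 in siMNX1 cells and 1023 ± 33.8 in siNT cells. CBWD1 and the MT1 genes have close copies that may share reads, so their values are uncertain.

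The median log2 fold change of 17 measured genes for zinc enzymes and their assembly in the secretory pathway was 0.05. Of them, 0 were higher and 1 was lower (5.88%, where 1.33% of all genes were). The lower gene was ENPP2, which encodes the secreted phospholipase autotaxin and fell to 699 ± 21.6 in siMNX1 cells, against 991 ± 28.4 in siNT cells (log2 fold change -0.50, limma, adjusted p = 0.00318). Of 27 measured genes of other metal transport and storage, 1 was higher (3.7%, where 1.99% of all genes were) and 0 lower. Their median was -0.03. ATP7A, a copper transporter of the trans-Golgi network, rose to 556 ± 46.2 in siMNX1 cells, against 384 ± 20.7 in siNT cells (log2 fold change 0.53, limma, adjusted p = 0.0143), a call that ended without siMNX1 replicate 1 (0.0614), siNT replicate 2 (0.0629) or siNT replicate 3 (0.0703).

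Genes of the granule that SLC30A8 serves showed more calls than the transporters did, although the difference between the lists was not tested. Of 18 measured genes of granule cargo, processing and beta cell function, 6 were higher and 2 lower. These were 33.3% and 11.1%, where 1.99% of all genes were called higher and 1.33% lower. The median log2 fold change of the 18 genes was 0.16. CHGA and CHGB, granins that help form granules, rose by 0.47 and 0.26 on the log2 scale (limma, adjusted p = 0.000267 and 0.0138). PCSK1 and PCSK2, the convertases that cut proinsulin, rose by 0.40 and 0.56 (limma, adjusted p = 0.0216 and 0.00243), PCSK1N, an inhibitor of PCSK1, by 0.29 (adjusted p = 0.0177) and the granule membrane protein PTPRN by 0.42 (adjusted p = 0.00116). G6PC2, a glucose-6-phosphatase, had a log2 fold change of -0.36 and the amyloid peptide gene IAPP one of -1.84 (limma, adjusted p = 0.00855 and 0.0123). The calls of CHGA, PTPRN, PCSK2 and G6PC2 held with any 1 library left out, and those of PCSK1 (adjusted p up to 0.108), PCSK1N (0.0976), CHGB (0.0696) and IAPP (0.0671) did not. Without the variance trend the call of G6PC2 ended too (adjusted p = 0.0949). SCG2, another granin, had a log2 fold change of -0.20 that missed the mark (adjusted p = 0.06 by limma, 0.0495 to 0.190 over the alternatives).

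Of 11 transcription factors of beta cells, MNX1 among them, 2 were higher (18.2%, where 1.99% of all genes were) and 0 lower. Their median was -0.05. RFX6 rose to 4565 ± 81.1 in siMNX1 cells, against 2784 ± 14.8 in siNT cells (log2 fold change 0.71, limma, adjusted p = 4.1e-05), and its call held with any 1 library left out. MAFA, which activates the insulin gene, rose to 519 ± 5.41 in siMNX1 cells, against 354 ± 38.4 in siNT cells (log2 fold change 0.56, limma, adjusted p = 0.0131), a call that ended without siMNX1 replicate 1 (0.0549), siNT replicate 2 (0.0604) or siNT replicate 3 (0.0699). PDX1, known as an activator of SLC30A8, had 8215 ± 106 in siMNX1 cells and 8493 ± 104 in siNT cells (log2 fold change -0.05, limma, adjusted p = 0.559).

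Markers of other pancreatic cell types were summed per library. Delta cell markers (5 of 6 measured) ran from 10038 to 11290 in siMNX1 libraries and from 7370 to 7568 in siNT libraries, and CASR made up most of them, with 8607 ± 656 in siMNX1 cells and 6112 ± 87.1 in siNT cells. The delta cell markers did not move one way. CASR, SST and HHEX rose, with HHEX at 484 ± 24.4 in siMNX1 cells and 54.1 ± 10.6 in siNT cells (log2 fold change 3.16, adjusted p = 9.62e-06 by limma). RBP4 fell to 507 ± 54.5 in siMNX1 cells, against 981 ± 26.8 in siNT cells (log2 fold change -0.96, adjusted p = 0.000451 by limma), and LEPR did not pass (0.27, adjusted p = 0.346 by limma). Alpha cell markers (5 of 7) ran from 18694 to 20055 in siMNX1 libraries and from 21875 to 23263 in siNT libraries, most of it from GC and TTR. CRYBA2 and GC fell (log2 fold change -0.66 and -0.28, limma, adjusted p = 0.000332 and 0.00911). TTR (log2 fold change -0.004, limma, adjusted p = 0.983), IRX2 and LOXL4 did not pass. Acinar markers (2 of 8) ran from 585 to 606 in siMNX1 libraries and from 554 to 640.1 in siNT libraries. Ductal markers (2 of 6) ran from 1331 to 1432 in siMNX1 libraries and from 1138 to 1306 in siNT libraries, and mesenchymal and immune markers (3 of 7) from 1167 to 1417 in siMNX1 libraries and from 1372 to 1603 in siNT libraries. The part of these markers in the values of the zinc transporter genes was not tested, and in bulk RNA fewer cells of a type and less RNA per cell cannot be told apart.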

How the data were processed

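The authors deposited normalized counts, a signal per gene that is never negative and carries decimals, for 16792 genes in 6 libraries. Per the submitters' processing notes the build was GRCh38, and the tools listed there, without order or role, were DESeq2 1.26.0, DESeq, RSEM 1.3.1, STAR 2.7.6a and R 3.6.3. For annotation, gene filter and strand handling the labels give nothing. Per the labels' protocols, libraries were made with the Ovation Solo kit and ribosomal RNA was depleted with AnyDeplete. Between 25.8% and 47.4% of values under 10 lay within 0.02 of a whole multiple of the best step, so whole reads were not recovered, the depth is unknown and no count model was fitted.

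Groups and replicate numbers came from the sample titles. A limma 3.58.1 fit (R 4.3.3) with a mean-variance trend was run on log2(value + 1) of every gene, and Benjamini-Hochberg adjustment used all of them. On this scale low genes show too small a change. No gene fell under a minimum mean of 5 (0 removed). In data simulated for siMNX1 against siNT over 16792 genes, drawn from the fitted variance model, 54% of genes changed 1.5-fold and 80% changed 2-fold were recovered, and 5.81% of calls were false. Smaller changes were not simulated. Exon lengths came from GENCODE 29 on GRCh38 and promoters from RefSeq (GRCh38.p14). No value above 0 was identical between libraries (0 found). Python 3.11.15, pandas 2.3.3, numpy 2.4.6, scipy 1.17.1 and matplotlib 3.10.9 were used. Genes outside the 9 were named where a list member passed the threshold or, where none passed, as its most abundant member, INS, SST, PERCC1 and MNX1 were named as checks of the labels, and likeness named the 3 nearest genes to SLC30A8 and to the gene of smallest adjusted p. MTF1, the metallothioneins, ZNF658, PDX1, SLC39A1, SLC39A5, SLC39A4, TMEM163, SCG2, SLC41A1 and ACE fall outside that rule and were named after their values were seen. The same holds for the cell type markers UCN3, NKX6-1, CASR, HHEX, RBP4, LEPR, CRYBA2, IRX2, LOXL4, GC and TTR. The members and lists were chosen with earlier results of these data known. Alternatives were other pseudocounts, filters, scalings and variance models, a replicate block, each library left out and another gene length.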

Additional observations from a re-analysis of the deposited data

How the results depend on the processing

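Of the 9 zinc transporter genes, 0 passed under any of the 16 alternatives run for the fit. SLC30A1, SLC30A7, SLC30A8, SLC39A6, SLC39A10 and SLC39A14 kept their direction in all 16. Left-out libraries turned SLC30A5 (-0.0616 to 0.0279, above 0 without siMNX1 replicate 2, 0.0279, or siNT replicate 3, 0.0118), SLC30A6 (-0.00959 to 0.0831, below 0 without siMNX1 replicate 1, -0.00552, or siNT replicate 3, -0.00959) and SLC30A9 (-0.0575 to 0.018, above 0 without siMNX1 replicate 1, 0.0027, or siNT replicate 2, 0.018). The siMNX1 minus siNT difference in the log2 ratio of SLC30A8 to INS ran from -0.0374 to 0.0623 and that of SLC30A5 to SLC30A6 from -0.121 to 0.0215 with 1 library left out. All genes called higher numbered 133 to 257 and lower 65 to 179 with 1 library left out, and 131 and 60 without the variance trend. With the replicate block they numbered 162 and 75, and it made 0 calls among the 9 genes. The titles do not say what the numbers mark. Same-numbered libraries had correlations of -0.0135, -0.00855 and -0.0377 in their deviations from the group mean. These cannot decide whether such libraries shared a culture or a date, since each mean rests on 3 libraries and all genes count equally. Left-out libraries gave 3 to 6 higher and 1 to 2 lower granule genes, 1 to 2 higher transcription factors, 0 to 1 higher and 0 to 1 lower other metal genes (lower: SLC41A1) and 0 to 1 higher other zinc transporter genes (SLC39A5). Without the variance trend there were 3 higher and 0 lower granule genes, 1 higher transcription factor and 0 higher other metal genes. SLC41A1 was also called, as 1 lower other metal gene, with a mean of at least 50, equal totals, equal upper quartiles or robust variance, and ACE, as 1 higher zinc enzyme gene, with a mean of at least 50. With that minimum SCG2 was called lower (adjusted p = 0.0495) while IAPP was no longer tested, so the 2 lower granule genes were not the same. Division by the longest transcript moved 7 genes in the order of siNT levels and 5 in that of siMNX1 levels. The cause of these changes was not tested. A fit with a library left out also had fewer samples, and the part of this was not separated. Depth is unknown, so no counting interval or floor could be given.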
